A study of Mus musculus with 4 samples.

Results

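Marcksl1, Marcks and Rnf187 were followed across brain endothelial cells of mouse embryos. Marcksl1 and Marcks are the members of a small family of membrane and actin regulators, and Rnf187 encodes a RING finger ubiquitin ligase. The 3 genes were taken by symbol, and all 3 are listed in both tables, among 16181 genes listed in both. Marcksl1 and Rnf187 were selected on their knockout to wild-type ratios in these same counts, high at E18 and at E15, and Marcks was added as the relative of Marcksl1. The knockout against wild-type values of all 3 are therefore a description, and no test is given for them. The study asks about endothelial UCP2, a carrier of the mitochondrial inner membrane, in the embryonic brain before birth.

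The libraries came from UCP2f/f;Tie2-cre embryos (here KO) and wild-type embryos (WT) at embryonic day 18 (E18) and embryonic day 15 (E15), all labelled C57BL/6 brain endothelial cells. The Tie2 promoter drives Cre in endothelial cells and in most blood cells. The sources used here do not say whether wild-type embryos carried the floxed allele or whether embryos were pooled. Each of the 4 groups is 1 library, although the design text speaks of replicates, so no ratio below has a replicate check. The library totals were 21992660 reads for KO at E18, 19075407 for WT at E18, 16328300 for KO at E15 and 15542930 for WT at E15.

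MARCKS is held at the inner face of the plasma membrane by a myristoyl anchor and by a basic effector domain that binds acidic lipids such as PIP2 and also actin filaments. Phosphorylation by protein kinase C, or binding of calcium-loaded calmodulin, releases the domain from the membrane and frees PIP2. MARCKSL1 is a smaller protein with the same kind of domain, and in zebrafish it shapes the diameter of blood vessels. Mice without either gene fail in closure of the neural tube or in brain formation. RNF187, also named RACO-1, is a coactivator of the AP-1 transcription factor c-Jun, and growth factor signalling through MEK and ERK stabilises it.

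The genes lie on separate chromosomes, as the deposited tables place them. Their start and end are identical to those of GENCODE M21, so the coordinates are read as GRCm38. Marcksl1 (ENSMUSG00000047945) lies on the plus strand of chromosome 4, 129513581 to 129515985. Marcks (ENSMUSG00000069662) lies on the minus strand of chromosome 10, 37133375 to 37138920. Rnf187 (ENSMUSG00000020496) lies on the minus strand of chromosome 11, 58932288 to 58938916. The joined exons of Marcksl1 and Rnf187 are short, at 1605 and 1949 bases, and those of Marcks span 4048 bases. GC content, taken from the longest transcript of each gene, is 58.2% for Marcksl1, 61.1% for Rnf187 and 45.1% for Marcks.

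The promoters of Marcksl1 and Rnf187 are shown because these genes had the same order of levels over the 4 libraries. RefSeq held promoters for 2 of the 3 genes, not for Marcks. Each sequence is the 250 bases before the RefSeq start on GRCm38.p6, 5′ to 3′ on the gene's strand. Capitals mark any match to 6 motifs searched on both strands.
Marcksl1 promoter, chr4:129513331-129513580, plus strand: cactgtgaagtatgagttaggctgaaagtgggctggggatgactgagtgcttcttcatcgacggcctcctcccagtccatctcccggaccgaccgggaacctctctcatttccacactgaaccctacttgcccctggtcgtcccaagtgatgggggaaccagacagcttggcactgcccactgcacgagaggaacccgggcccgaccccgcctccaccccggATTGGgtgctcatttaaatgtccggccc
Rnf187 promoter, chr11:58938907-58939156, minus strand: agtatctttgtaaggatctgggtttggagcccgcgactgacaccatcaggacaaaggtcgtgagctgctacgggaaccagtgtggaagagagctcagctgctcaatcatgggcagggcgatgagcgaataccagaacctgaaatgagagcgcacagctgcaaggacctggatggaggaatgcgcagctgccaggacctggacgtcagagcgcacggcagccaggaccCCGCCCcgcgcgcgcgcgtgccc

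The motifs were chosen after the sequences had been seen. The AP-1 motif was searched as TGANTCA, present in 6.7% of all 32851 promoters on either strand. The cyclic AMP response element was searched as TGACGTCA, present in 1.5% of them. The GC box, spelled GGGCGG, is in 32.7% of promoters. The CCAAT box was searched by those 5 letters and is in 33.8% of promoters. The E-box, spelled CACGTG, is in 6.0% of promoters, and the TATA box, spelled TATAAA, in 12.4%. The Marcksl1 promoter held 1 CCAAT box and the Rnf187 promoter 1 GC box, both on the opposite strand and with no overlap with another motif. The letters of the other motifs are in neither window. GC content was 60.4% in the Marcksl1 window and 61.2% in the Rnf187 window, above 73.0% and 74.8% of all promoters.

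All 12 endothelial markers of the list were detected in every library, with summed levels of 15637 to 18354 CPM (counts per 1000000 reads of the library total). Ucp2 was lower in KO at both stages, with 3296 reads in KO and 6696 in WT at E18 (log2 ratio -1.22) and 2666 in KO and 4285 in WT at E15 (log2 ratio -0.75). At E18 Xist had 547 reads in KO and 0 in WT, and the Y-linked Ddx3y 0 in KO and 5826 in WT. At E15 Xist had 2109 reads in KO and 2549 in WT, and Ddx3y is not listed. Sex therefore cannot be told apart from genotype at E18, nor from stage in WT, and it enters the fit over all 4 libraries. All 3 genes are autosomal. In these bulk samples, fewer cells of a type and less RNA per cell cannot be told apart.

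**Figure D1:**
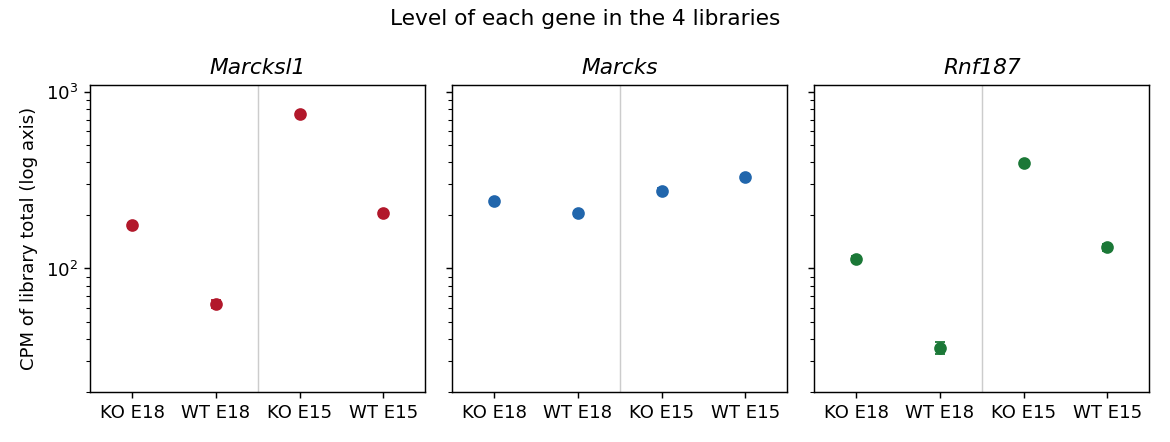
Level of Marcksl1, Marcks and Rnf187 in each library, as CPM of the library total on a log axis. Points are single libraries and bars are 95% counting intervals, mostly smaller than the points. Marcksl1 and Rnf187 are highest in KO at E15 and lowest in WT at E18, whereas Marcks stays between 206 and 331 CPM.

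Marcksl1 stood higher in KO than in WT at each stage, and lower at E18 than at E15 in each genotype. It had 3864 reads (176 CPM) in KO at E18 and 1200 (62.9 CPM) in WT at E18. It had 12327 reads (755 CPM) in KO at E15 and 3195 (206 CPM) in WT at E15. The levels spread over a wide range, with KO at E15 far above the other libraries and the E18 knockout library just under the E15 wild-type one. By reads, Marcksl1 ranked 156th of 19031 listed genes in KO at E15, whereas in WT at E18 it ranked 3175th of 17344.

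Rnf187 followed the same order. It had 2500 reads (114 CPM) in KO at E18 and 676 (35.4 CPM) in WT at E18. It had 6459 reads (396 CPM) in KO at E15 and 2050 (132 CPM) in WT at E15. KO at E15 was the highest library and WT at E18 the lowest, and KO at E18 lay close below WT at E15.

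Marcks differed little between libraries. It had 5339 reads (243 CPM) in KO at E18 and 3931 (206 CPM) in WT at E18. It had 4521 reads (277 CPM) in KO at E15 and 5141 (331 CPM) in WT at E15. Its highest library was WT at E15, not KO at E15, and its lowest was WT at E18. Its counting intervals do not overlap between any 2 libraries (236 to 249 CPM and 200 to 213 CPM at E18, 269 to 285 CPM and 322 to 340 CPM at E15, KO and then WT), but they cover counting error only.

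The order of the genes within a library depended on the library. Scaled per kilobase of exon, Marcksl1 stood at 109 CPM in KO at E18, above Marcks at 60.0 and Rnf187 at 58.3, levels that lie close together. In WT at E18 Marcks led with 50.9 CPM per kilobase, followed by Marcksl1 with 39.2 and Rnf187 with 18.2. In KO at E15 Marcksl1 stood at 470, Rnf187 at 203 and Marcks at 68.4 CPM per kilobase. In WT at E15 Marcksl1 stood at 128, Marcks at 81.7 and Rnf187 at 67.7. Marcksl1 was thus the most abundant transcript of the 3 in every library but WT at E18.

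Ratios of reads within a library do not depend on how libraries are scaled. Marcksl1 had 0.724 reads per Marcks read in KO at E18 (95% interval 0.694 to 0.754) and 0.305 in WT at E18 (0.286 to 0.326). It had 2.73 in KO at E15 (2.64 to 2.82) and 0.621 in WT at E15 (0.594 to 0.650). The share of Marcksl1 in the reads of this pair was therefore higher in KO at each stage, at 42.0% in KO and 23.4% in WT at E18 and at 73.2% in KO and 38.3% in WT at E15. Both genes together gave 418 CPM in KO and 269 CPM in WT at E18, and 1032 CPM in KO and 536 CPM in WT at E15.

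The reads of Marcksl1 per Rnf187 read were 1.55 in KO and 1.78 in WT at E18, and 1.91 in KO and 1.56 in WT at E15. The highest of these is in KO at E15 and the lowest in KO at E18, and the intervals of KO and WT do not overlap at E15 (1.85 to 1.97 in KO and 1.47 to 1.65 in WT). At E18 they overlap slightly, at 1.47 to 1.63 in KO and 1.61 to 1.95 in WT. Marcksl1 and Rnf187 were both chosen for high ratios of KO to WT, and Marcks was not. That choice favours like values in KO and WT for the ratio to Rnf187, and unlike values for the ratio to Marcks. Both ratios are therefore a description.

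**Figure D2:**
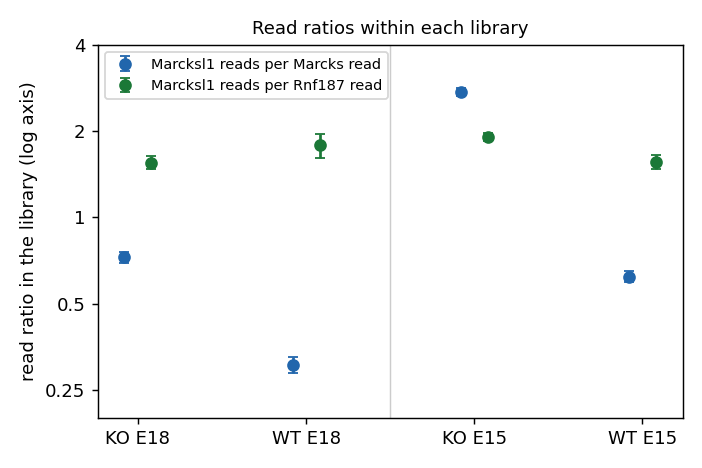
Reads of Marcksl1 per read of Marcks (blue) and per read of Rnf187 (green) in each library, on a log axis with 95% counting intervals. The ratio to Marcks runs between 0.305 and 2.73 and the ratio to Rnf187 between 1.55 and 1.91. Marcksl1 and Rnf187, unlike Marcks, were chosen for high ratios of KO to WT.

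The first comparison asks how the knockout library differed from the wild-type one at each stage. Ratios are log2 values of CPM with 1 CPM added, and genes past 2-fold either way are called. Marcksl1 had a log2 ratio of KO to WT of 1.47 at E18 (interval 1.39 to 1.58) and 1.87 at E15 (1.82 to 1.93), folds of 2.79 and 3.67. Rnf187 had 1.65 at E18 (1.56 to 1.81) and 1.58 at E15 (1.51 to 1.66), folds of 3.21 and 3.00. Marcks had 0.24 at E18 (0.18 to 0.30) and -0.26 at E15 (-0.31 to -0.20), so it lay within 2-fold on opposite sides of 0.

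Of the 3 genes, 2 were called higher at E18, where 2.88% of 12349 genes were (356 higher, and 484 or 3.92% lower, 6.8% in all). The same 2 were called higher at E15, where 3.55% of 12633 genes were (448 higher, and 420 or 3.32% lower, 6.87% in all). Scaled to the reads of the endothelial markers, the E15 calls were 305 higher and 679 lower. The marker sum was 18354 CPM in KO and 15637 CPM in WT at E15, although 4 of 12 markers had ratios above 0 (median log2 -0.01). The largest ratios were those of Flt1 (2939 CPM in KO and 1328 CPM in WT) and Cldn5 (7583 and 6151 CPM). Marcksl1 ranked 111th from the highest ratio at E18 and 60th at E15, and Rnf187 72nd at E18 and 115th at E15. Among 11784 genes tested at both stages, 40 (0.339%) were called higher at both, and the choice of members places these 2 genes among them. These ranks and calls describe 2 pairs of libraries, with no measure of variation among embryos.

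**Figure D3:**
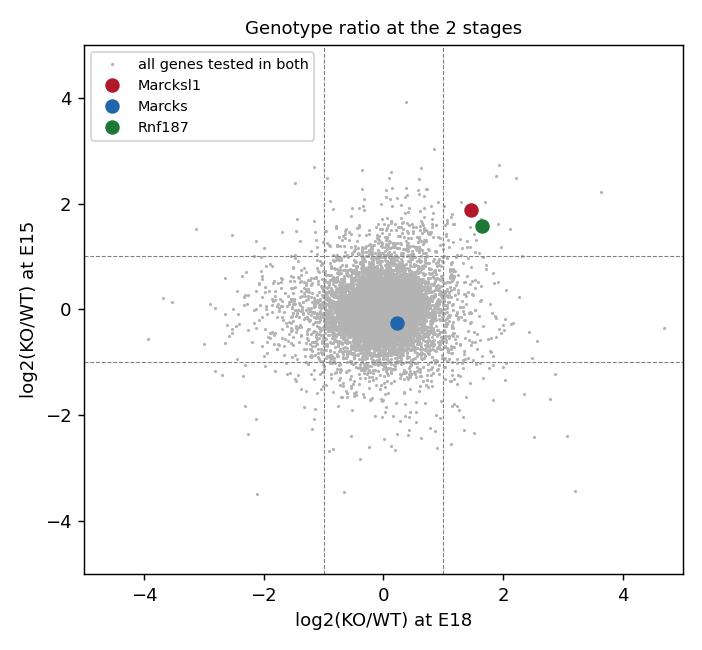
Log2 ratio of KO to WT at E18 (horizontal) and at E15 (vertical) for 11784 genes tested at both stages, with 1 gene outside the axes. Dashed lines mark 2-fold. Marcksl1 and Rnf187 lie in the upper right beyond both lines, and Marcks lies in the body of genes.

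The genotype ratios were compared between stages through their difference, E18 minus E15, which again carries counting error only. For Marcksl1 the difference was -0.40 (interval -0.50 to -0.29), a smaller ratio at E18. For Rnf187 it was 0.10 (-0.04 to 0.24), which holds 0. For Marcks it was 0.49 (0.41 to 0.58), which reflects the opposite signs. Scaled to endothelial marker reads, the differences were -0.22 for Marcksl1, 0.67 for Marcks and 0.28 for Rnf187, and an interval of the same width around the value of Rnf187 no longer holds 0. That scaling follows the higher Flt1 and Cldn5 levels in KO at E15 given above. With 1 library per group, these differences have no replicate test.

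The second comparison asks how E18 differed from E15 within each genotype. These ratios come from the same 4 counts as the ratios that chose Marcksl1 and Rnf187, so they too are a description with no test. Marcksl1 was lower at E18, with a log2 ratio of E18 to E15 of -2.10 in KO (interval -2.16 to -2.05) and -1.69 in WT (-1.81 to -1.61). Rnf187 was lower as well, with -1.79 in KO (-1.87 to -1.73) and -1.87 in WT (-2.02 to -1.77). Marcks was within 2-fold in both genotypes, with -0.19 in KO (-0.25 to -0.13) and -0.68 in WT (-0.74 to -0.62). The value of Marcks in KO was -0.075 with TMM factors and -0.065 with DESeq2 size factors, both outside that interval.

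Of the 3 genes, 2 were called lower at E18 in KO, where 10.9% of 12465 genes were (1363 lower, and 541 or 4.34% higher, 15.3% in all). The same 2 were called lower in WT, where 7.58% of 12515 genes were (949 lower, and 386 or 3.08% higher, 10.7% in all). With TMM factors, 501 genes were higher and 760 lower in WT. Lower at E18 in both genotypes were 372 of 11997 genes (3.1%). Counted from the lowest ratio, Marcksl1 ranked 291st in KO and 229th in WT, and Rnf187 446th in KO and 168th in WT.

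In an additive fit of stage and genotype over all 4 libraries, the stage effect of E18 against E15 was -1.79 for Marcksl1, -1.73 for Rnf187 and -0.32 for Marcks on the log2 scale. Of 13416 genes, edgeR's quasi-likelihood test called 58 lower (0.432%) and 122 higher (0.909%) at E18. The fit has 1 residual degree of freedom, which is the difference between stages of the KO to WT ratio. Marcksl1 and Rnf187 were chosen on those ratios, so no p-value is given for the members.

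**Figure D4:**
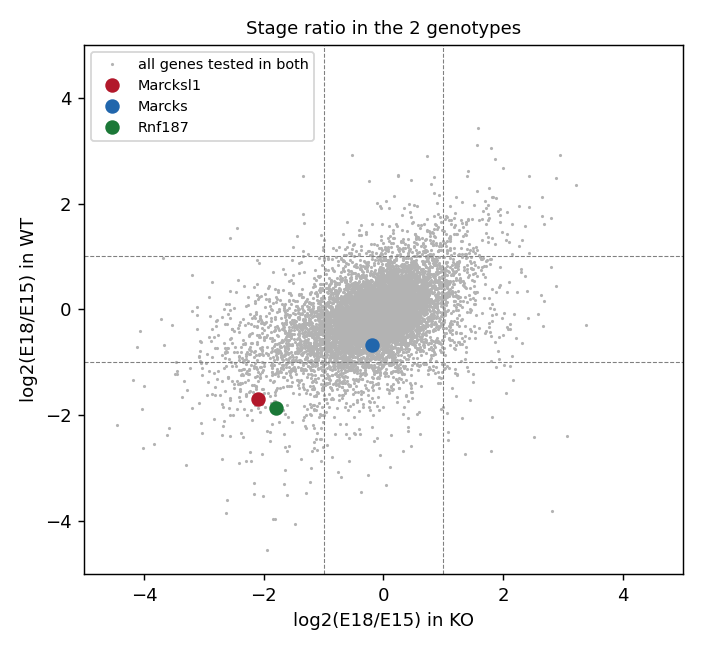
Log2 ratio of E18 to E15 in KO (horizontal) and in WT (vertical) for 11997 genes tested in both genotypes, with 7 genes outside the axes. Dashed lines mark 2-fold. Marcksl1 and Rnf187 lie in the lower left beyond both lines, and Marcks lies inside them, at -0.19 in KO and -0.68 in WT.

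Genes that act with the members were taken from fixed lists, chosen with earlier results of these data known. Their counts past 2-fold are to be read beside the shares of all genes past 2-fold in either direction. Those were 6.8% at E18 and 6.87% at E15 in KO against WT. With stage they were 15.3% in KO (10.9% lower) and 10.7% in WT (7.58% lower). Kinases of the MARCKS effector domain and of MARCKSL1 (protein kinase C, JNK and others) held 12 genes. In KO against WT, 0 of 12 tested were past 2-fold at E18 (median 0.19, against 0.00 over all genes). At E15 1 of 11 tested was higher and 0 lower (median -0.05, against -0.01 over all genes). That gene was Prkch, the eta isoform of protein kinase C, with 2688 reads in KO and 747 in WT at E15 (log2 1.76), and with 412 in KO and 527 in WT at E18 (log2 -0.54). Prkch was high in KO at E15 only, whereas Marcksl1 was higher in KO at both stages.

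The same kinases included 3 that were lower at E18 in KO and 1 that was higher (median -0.35, against -0.10 over all genes), and 2 that were lower in WT (median -0.58, against -0.11). Higher in KO was Prkcq, on 76 reads at E18 and 20 at E15 (log2 1.00). Among those lower in WT was the protein kinase C gene Prkca (log2 -1.14), whose ratio in KO was -0.51. Lower in KO were Prkch (log2 -3.07) and the JNK genes Mapk8 and Mapk9. Mapk8 had 438 reads in KO at E18 and 983 in KO at E15 (log2 -1.55), and 763 in WT at E18 and 891 in WT at E15 (log2 -0.51). Mapk9 had 394 reads in KO at E18 and 764 in KO at E15 (log2 -1.34), and -0.50 as the log2 ratio in WT.

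Calmodulin and the N-myristoyltransferases, which bind the effector domain and attach the myristoyl anchor, had 0 of 5 genes past 2-fold in any of the 4 comparisons. Their ratios of KO to WT lay between -0.10 and 0.66 at E18 and between -0.27 and 0.23 at E15 on the log2 scale. Enzymes that make or cleave PIP2 had 0 of 11 tested genes past 2-fold in KO against WT at E18 (median -0.34, against 0.00 over all genes). At E15 1 of 11 was lower (median -0.04), the phospholipase D gene Pld1, with 115 reads in KO and 364 in WT (log2 -1.60). Pip5k1c, a kinase that makes PIP2 and the gene with the most reads of the list, had a log2 ratio of KO to WT of 0.31 at E18, and 2846 reads in KO and 2710 in WT at E15. With stage, 1 of 11 was higher at E18 in KO and 2 were lower, and in WT 0 were higher and 1 lower. In KO these were Pld1 (log2 1.24), the PIP2 kinase Pip5k1b (log2 -1.14) and the phospholipase Plcb1 (log2 -1.36), and in WT the phospholipase Plcg2 (log2 -1.75).

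Actin and its regulators had 0 of 26 genes past 2-fold in KO against WT at either stage (median 0.05 at E18 and -0.08 at E15). Cfl1, the filament-severing cofilin and the gene with the most reads of the list, had log2 ratios of 0.11 at E18 and -0.08 at E15, opposite in sign and small like those of Marcks. With stage, 1 of 26 was past 2-fold in KO and 0 in WT, Vasp, which promotes filament elongation, with 5229 reads in KO at E18 and 1910 in KO at E15 (log2 1.02; 0.62 in WT). Gap43 and Basp1, growth cone proteins that bind PIP2 like MARCKS, were nearly absent, with a summed level of 5.09 CPM in KO and 2.57 CPM in WT at E18, and 2.69 CPM in KO and 6.05 CPM in WT at E15. Gap43 was past 2-fold at E18, on 107 reads in KO and 36 in WT (log2 1.02), and it had 23 in KO and 55 in WT at E15. With stage, Gap43 was higher at E18 in KO (log2 1.28), and Basp1 was lower in WT, on 13 reads at E18 and 39 at E15 (log2 -1.06).

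The AP-1 subunits, partners of RNF187, were the most abundant of these lists after actin, and 6 of 7 passed the filter on low counts. In KO against WT, 1 was lower at E18 (median -0.52, against 0.00 over all genes) and 0 were past 2-fold at E15 (median -0.24). Jun had 86169 reads in KO and 111124 in WT at E18 (log2 -0.57), and 57973 in KO and 58661 in WT at E15 (log2 -0.09). Fosb was the gene past 2-fold, with 8394 reads in KO and 21964 in WT at E18 (log2 -1.59) and -0.60 at E15. Fos had a log2 ratio of -0.93 at E18 and -0.33 at E15. Fosl1 was the 1 tested subunit with a positive ratio at either stage, at 0.56 at E18 and 0.17 at E15. With stage, 0 of 6 were past 2-fold in KO (median 0.36, against -0.10 over all genes), and 2 were higher and 0 lower in WT (median 0.71, against -0.11). Those were Fos (log2 1.26 in WT and 0.66 in KO) and Fosb (log2 1.30 in WT and 0.30 in KO). Fosl2 had negative ratios in both genotypes like Rnf187, at -0.73 in KO and -0.61 in WT.

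Inputs to RNF187, the RAF, MEK and ERK kinases with Map3k1 and Prmt1, had 0 of 9 genes past 2-fold in KO against WT at either stage (median -0.03 at E18 and 0.09 at E15). Map2k2, the MEK2 gene and the one with the most reads, had log2 ratios of KO to WT of -0.03 at E18 and -0.27 at E15. With stage, 2 of 9 were lower at E18 in KO and 0 in WT. Among the lower was Braf, a RAF kinase, with 876 reads in KO at E18 and 1337 in KO at E15 (log2 -1.02), and 1075 in WT at E18 and 1058 in WT at E15 (log2 -0.27).

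The RING finger genes named Rnf and a number were counted as a family, with Rnf187 among them. Rnf187 was chosen on its ratios of KO to WT, so its own place in these counts is a description. At E18, 57 were tested in KO against WT, of which 1, Rnf187 itself, was higher and 2 were lower (median 0.00), where 2.88% of all genes were higher and 3.92% lower. At E15, 59 were tested, of which 6 including Rnf187 were higher and 0 lower (median 0.15, against -0.01 over all genes), where 3.55% of all genes were higher and 3.32% lower. With stage, 8 of 58 were lower at E18 and 0 higher in KO, and 4 of 57 were lower and 2 higher in WT, with Rnf187 among the lower in both. Of all genes, 10.9% were lower in KO and 7.58% in WT.

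Genes beside the members had other ratios. Hdac1, a histone deacetylase gene, ends 119 bases from Marcksl1 on the opposite strand, tail to tail. It had 4253 reads in KO and 3015 in WT at E18 (log2 0.29), and 2646 in KO and 2900 in WT at E15 (log2 -0.20). On the other side of Marcksl1, the antisense gene Gm12979 had at most 7 reads in any library. The sources used here do not say if strand entered the counting, but the deposited spans of Marcksl1 and Hdac1 do not overlap. Beside Rnf187, Zfp39 had 86 reads in KO and 112 in WT at E18 and 61 in KO and 43 in WT at E15, and the histone gene Hist3h2ba had 32 to 55 reads in all libraries. Beside Marcks, 5930403N24Rik, 482 bases away, had 7 to 21 reads. GENCODE M21 also holds a processed pseudogene, Marcksl1-ps4, on chromosome 13, for which no value is given here, so reads shared with it are uncertain.

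The genes with the most similar pattern were sought among 8555 genes listed in both tables with a mean of at least 10 CPM. Likeness was the Euclidean distance between log2(CPM + 1) profiles over the 4 libraries, each centred on its own mean. Marcksl1 and Rnf187 were each other's nearest gene, at a distance of 0.255. Both were chosen for their ratios between these libraries, so that likeness is a description. Marcks was at 2.27 from Marcksl1, where it ranked 1794th of the 8555 genes by likeness, and at 2.15 from Rnf187, where it ranked 1582nd. Ranked by likeness to Marcks, Marcksl1 was 8499th and Rnf187 8488th of the 8555.

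The next nearest to Marcksl1 were Rac1 (0.476), Dusp2 (0.524), Acsl3 (0.557) and Gch1 (0.606). Rac1, a small GTPase of actin dynamics, had 2105 reads in KO and 1027 in WT at E18, and 8337 in KO and 2411 in WT at E15. Gch1, the first enzyme of tetrahydrobiopterin synthesis, had 289 in KO and 143 in WT at E18, and 1327 in KO and 248 in WT at E15. In both, KO at E15 is far above the other libraries and WT at E18 is the lowest, as for Marcksl1.

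The next nearest to Rnf187 were Dusp2 (0.471), Nkd1 (0.571), Rac1 (0.612) and Acsl3 (0.619). Dusp2, a phosphatase of MAP kinases, had 1059 reads in KO and 426 in WT at E18, and 2790 in KO and 1057 in WT at E15. Nkd1, a feedback inhibitor of Wnt signalling, had 5408 in KO and 2353 in WT at E18, and 13405 in KO and 5395 in WT at E15. Acsl3, which activates long-chain fatty acids, had 303 in KO and 144 in WT at E18, and 1114 in KO and 373 in WT at E15. All 3 share the order of Rnf187 over the libraries, with smaller ratios of KO to WT at E18.

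Marcks had closer neighbours, as genes with small differences lie near each other. They were S1pr4 (0.0219), Ankrd28 (0.0492), Cdca4 (0.0580), Slc43a2 (0.0646) and Picalm (0.0731). S1pr4, a receptor for sphingosine 1-phosphate, had 426 reads in KO and 310 in WT at E18, and 358 in KO and 419 in WT at E15. Picalm, a clathrin assembly protein, had 1864 in KO and 1322 in WT at E18, and 1479 in KO and 1781 in WT at E15.

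**Figure D5:**
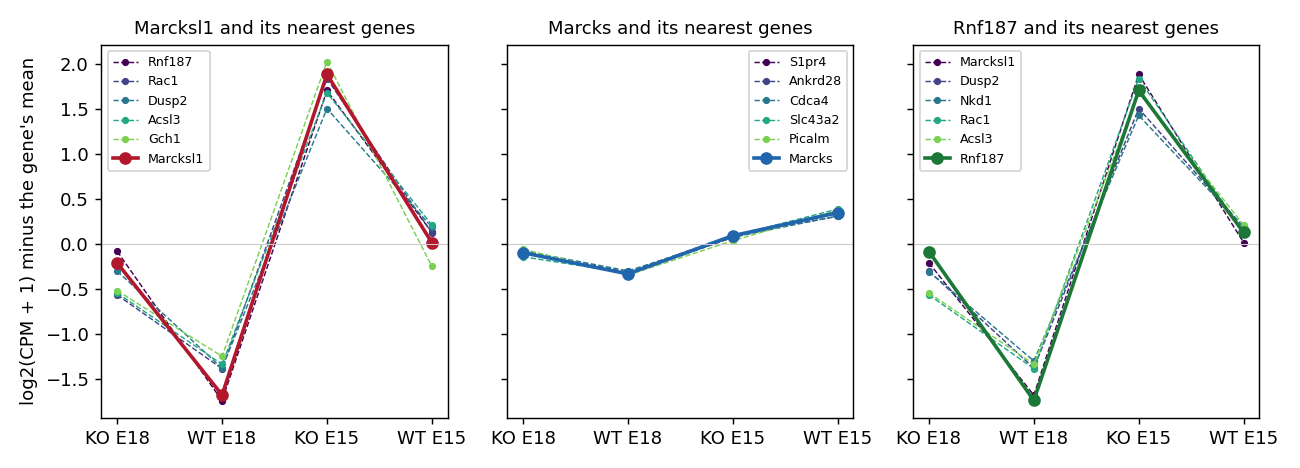
Centred log2(CPM + 1) of each member (thick line) and its 5 nearest genes (dashed) over the 4 libraries. The genes nearest to Marcksl1 and Rnf187 peak in KO at E15 and are lowest in WT at E18, and those nearest to Marcks stay within 0.5 of their mean.

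Markers of other cells and gene properties were set beside these values. Summed neuronal markers (8 genes) stood at 42.7 CPM in KO and 47.8 CPM in WT at E18, and at 50 CPM in KO and 97.7 CPM in WT at E15. Their sum was lower in KO at each stage, by little at E18. Neurod1 and Snap25 were at 0 in KO at E18. Map2 went the other way at E18, with 453 reads in KO and 197 in WT (log2 0.93), and Dcx had 148 in KO and 120 in WT. Neural progenitor markers (8 of 9 listed in both tables) stood at 282 CPM in KO and 273 CPM in WT at E18, and at 397 CPM in KO and 269 CPM in WT at E15, of which Nes alone gave 258 CPM in KO and 244 CPM in WT at E18, and 387 CPM in KO and 252 CPM in WT at E15. The 7 other progenitor markers summed to 23.8 CPM in KO and 28.8 CPM in WT at E18, and to 10.2 CPM in KO and 17.0 CPM in WT at E15. Nes was thus highest in the library where Marcksl1 and Rnf187 were highest, and the sum of the others was lowest there. Singly they differed: in KO at E15 Fabp7 was at its lowest (4.78 CPM) and Hes5 at its highest (2.63 CPM). Neurog2 was at 0 in WT at E18 and in KO at E15. Microglial markers (9 genes) stood at 136 CPM in KO and 76.2 CPM in WT at E18, and at 267 CPM in KO and 575 CPM in WT at E15. Their sum was lower at E18 in both genotypes, like Marcksl1 and Rnf187. Lyz2 gave 84.7 CPM of it in KO and 45.1 CPM in WT at E18, and was higher at E18 than at E15 (log2 2.39 in KO and 0.36 in WT). Of 7 tested with stage, the 6 others were lower past 2-fold in both genotypes.

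Pericyte markers stood at 10789 CPM in KO and 8682 CPM in WT at E18, and at 4488 CPM in KO and 6825 CPM in WT at E15. Fibroblast markers (5 of 6 listed in both tables) lay between 105 and 238 CPM and erythroid markers between 397 and 902 CPM. Among the endothelial markers, Flt1, which encodes a VEGF receptor, was the gene past 2-fold at E15, with 47988 reads in KO and 20645 in WT (log2 1.15). The part of these cells in the levels of the members was not tested.

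Marcksl1 and Rnf187 lie among the 10% of tested genes richest in GC. Those genes had a median log2 ratio of KO to WT of 0.05 at E18 and -0.01 at E15, and 4.54% and 5.70% of them were called higher, against 2.88% and 3.55% of all genes. With stage, their medians were -0.02 in KO and -0.07 in WT, against -0.10 and -0.11 over all genes. The part of GC content in the members' ratios was not tested.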

How the data were processed

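RNA sequencing counts of 4 mouse libraries were used. Per the file headers, the deposited tables give raw read counts per Ensembl gene. The authors' CPM are those counts per 1000000 reads, with a count of 0 set to 0.5 read. The authors' fold is the ratio of knockout to wild-type CPM. Its deposited log2 value served only as an alternative. The authors' p-values, from 1 library on each side, were not used. The submitters' processing notes name the build mm9 and, with no order, the tools HTSeq 0.6.0, TopHat2 2.0.12 and Bowtie2 2.2.3. Of 20143 identifiers found in GENCODE M21 (GRCm38), 18140 (90.1%) carry the same coordinates in both.

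Counts were scaled to library totals. A ratio needed 1 CPM or more in either library and 50 reads or more over the pair, and comparisons between stages took genes listed in both tables. A pseudocount of 1 CPM was added, which understates ratios of weakly expressed genes. Counting intervals (95%, exact Clopper-Pearson) are those of the count ratio, with no pseudocount (Poisson intervals for levels, a delta-method interval for the difference between stages), and they cover counting error only. Levels per kilobase use the union of GENCODE M21 exons. Reads of genes with near-identical copies may be split between them. The replicates of each stage in the additive test were the 2 genotypes. It used edgeR 4.0.16 with TMM factors on genes that reached 1 CPM in 2 libraries or more, and a threshold of 0.05 on Benjamini-Hochberg adjusted p-values, with DESeq2 1.42.0 as an alternative.

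Fits and calls were run on simulated counts as a check of the code only. For the additive fit these held 8-fold changes and a dispersion (spread beyond counting) of 0.05, under the 0.1106 fitted to the data. Such counts do not measure variation among embryos. The named genes are the 3 members, genes of the pathway lists with the most reads or past 2-fold, the nearest listed genes within 100 kb on either side, and the 5 genes nearest in pattern. Flt1, Cldn5, Nes, Hes5, Fabp7, Map2, Dcx, Lyz2, Fosl1, Fosl2 and the promoter motifs were chosen after values and sequences were seen. The members and lists were chosen with earlier results of these data known. Some list genes are counted but not reported by name here. Protein sequences were not used here.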

Additional observations from a re-analysis of the deposited data

Results flagged for a closer look

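Marcks had knockout against wild-type log2 ratios on opposite sides of 0 at the stages, 0.24 at E18 and -0.26 at E15, with counting intervals that exclude 0. The difference was not tested, since each stage has 1 library per genotype. The genes nearest to Marcks in pattern did the same, as their choice implies: 0.24 and -0.29 for S1pr4, 0.24 and -0.20 for Ankrd28, 0.22 and -0.24 for Cdca4, 0.18 and -0.31 for Slc43a2, and 0.29 and -0.34 for Picalm, at E18 and then E15.

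Other genes had opposite ratios of KO to WT at E18 and E15 that were likewise not tested. Prkch had -0.54 at E18 and 1.76 at E15. Mapk9 had -0.42 at E18 and 0.41 at E15, and Braf -0.49 at E18 and 0.26 at E15. Plcg2 had 0.69 at E18 and -0.91 at E15, and Pip5k1b -0.50 at E18 and 0.25 at E15. Vasp had 0.15 at E18 and -0.24 at E15, and Cfl1 0.11 and -0.08. Gap43 had 1.02 at E18 and -0.91 at E15, and Hdac1 0.29 at E18 and -0.20 at E15. Some genes also had opposite ratios of E18 to E15. These were 1.28 in KO and -0.65 in WT for Gap43, and 0.25 in KO and -0.24 in WT for Hdac1. With library totals they were also 0.08 in KO and -0.11 in WT for Cfl1, and 0.14 in KO and -0.11 in WT for Map2k2. The median of all genes in WT was likewise -0.11 with library totals, and 0.00 with TMM factors. The sign of Cfl1 and Map2k2 in WT therefore depends on the scaling.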

How the results depend on the processing

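All 90 recomputed ratios of the 3 genes kept their direction. Of these, 74 moved by less than the distance from the centre to an end of their counting interval. The settings were TMM factors, DESeq2 size factors, scaling to endothelial marker reads and pseudocounts of 5 and 0.25 CPM. They also included no filter, a filter at 5 CPM and the authors' deposited log2 fold (KO against WT only). The filter settings cannot change the ratio of a gene that passes them. Their values equal the main ones and are no check, although they count among the 74. Marcksl1 ran between 1.41 and 1.48 at E18 and between 1.64 and 1.88 at E15 in KO against WT, and Rnf187 between 1.55 and 1.68 and between 1.35 and 1.58. TMM factors moved the median of all genes with stage to 0.01 in KO and 0.00 in WT, against -0.10 and -0.11 with library totals. With TMM factors, the ratio of E18 to E15 was -1.98 in KO and -1.57 in WT for Marcksl1. It was -0.075 and -0.56 for Marcks, and -1.68 and -1.75 for Rnf187. With DESeq2 size factors these were -1.97 and -1.58, -0.065 and -0.57, and -1.67 and -1.76. Both of these WT values of Rnf187 lie outside its counting interval of -2.02 to -1.77. With endothelial scaling, the ratio in WT was -1.85 for Marcksl1, -0.83 for Marcks and -2.02 for Rnf187, and the ratio of KO to WT at E15 was 1.64 for Marcksl1, -0.49 for Marcks and 1.35 for Rnf187. Endothelial scaling moved the median of all genes at E15 to -0.22, and the stage difference of the genotype ratio to -0.22 for Marcksl1, 0.67 for Marcks and 0.28 for Rnf187.

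The numbers of genes past 2-fold moved with pseudocount and filter. For KO against WT at E18, a pseudocount of 5 CPM gave 42 higher and 82 lower, no filter 567 and 876, a filter at 5 CPM 211 and 275, and the authors' deposited fold 586 and 768. At E15, a pseudocount of 5 CPM gave 163 higher and 75 lower. The number lower at E15 was 756 with no filter, 266 with a filter at 5 CPM, 679 with endothelial scaling and 631 with the authors' deposited fold. With stage, a pseudocount of 5 CPM gave 178 higher and 601 lower in KO, and 143 higher and 286 lower in WT.

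In the additive stage test, the numbers higher and lower were 370 and 358 with DESeq2's Wald test, 59 and 33 without a filter, 507 and 490 with a filter at 5 CPM, and 1 and 0 without genotype as a term. In that last edgeR fit, which counts the genotype difference as noise, 2141 genes had an unadjusted p under 0.05. The stage effect was then -1.89 for Marcksl1 and -1.70 for Rnf187. No paired analysis was possible because each group holds 1 library. Depth gave Marcksl1 and Rnf187 intervals far narrower than their ratios of KO to WT and of E18 to E15. The ratios of Marcks were smaller beside their intervals. The spread between embryos was not measured.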
